A study of Mus musculus with 12 samples.

Results

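The mitochondrial carrier family (gene symbols Slc25a followed by a number) was followed through the kidney libraries of the series. Members were all mouse genes with such a symbol that reached at least 1 TPM (a transcript level corrected for gene length and scaled to the library's total) in at least 3 of the 12 libraries. The deposited tables listed 47 such genes, and 43 met the rule, among 14488 genes of the 24532 listed. The 4 that did not were Slc25a31, which never exceeded 0.211 TPM, Slc25a41, which never exceeded 0.0789 TPM, and Slc25a18 and Slc25a54, which were listed at 0 in every library. Just inside the rule, Slc25a53 reached 1 TPM in 7 libraries (range 0.702 to 1.65 TPM), Slc25a43 in 8 (0.488 to 1.46 TPM) and Slc25a2 in 9 (0.928 to 2.50 TPM).

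All mice had been fasted overnight. The wild-type animals were of strain C57BL/6, and the knockout animals carried the Nr1h4tm1Gonz allele, labelled Nr1h4tm1Gonz/J, which disrupts the gene of FXR (farnesoid X receptor), through which cells sense bile acids. Each genotype was given either vehicle or the synthetic FXR agonist GW4064, and a time of 6 h is stated for the GW4064 libraries alone. Genotype and treatment thus gave 4 groups, each with 3 kidney libraries. Dose, age, sex and the cells of origin within the kidney are not in the labels, nor do the labels tie the 3 libraries of a group to different mice, which means that the p-values speak of variation among these libraries and that part of it may be technical. The series title concerns cisplatin injury and ferroptosis, an iron-dependent death by lipid peroxidation, but no library here was labelled as given cisplatin.

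Mitochondrial carriers are small proteins of the inner mitochondrial membrane built from repeated pairs of membrane-spanning helices. Each moves a particular set of solutes, such as ADP and ATP, phosphate, citrate cycle acids, amino acids, acylcarnitines, coenzymes, glutathione or iron, usually by exchange. They are made in the cytosol and inserted through the TIM22 import complex. Kidney tubule cells, above all those of the proximal tubule, are rich in mitochondria and burn fatty acids, which places carriers at the junction of fuel use, gluconeogenesis and ammonia production.

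The measured levels rested on 2.86 to 4.27 mapped gigabases per library, derived from the deposited coverage and FPKM. Nr1h4 measured 105 to 134 TPM in the knockout libraries and 189 to 267 TPM in the wild-type libraries, with a log2 difference of -1.06 ± 0.11 (SE) on vehicle (limma, adjusted p = 0.000189). Transcript of the gene was thus still measured in the knockout, below every wild-type library, and a level over the whole gene checks the genotype labels only in part, since it does not show which part of the transcript is altered. The gene is on chromosome 10 (89454234 to 89533622). Slc25a3 lies 1.66 megabases away on the same chromosome and Slc25a16 26.5 megabases away, and the knockout line and the lost receptor cannot be told apart for any genotype difference given here. All 10 kidney markers examined were detected. Markers of skeletal muscle summed to at most 2.68 TPM with Myh4 at 0, and those of adrenal gland to at most 2.49 TPM with Cyp11b1 and Cyp11b2 at 0. Fat markers were present, with 7 of 8 at 1 TPM or more in at least 3 libraries. So were liver markers, with 4 of 5 at that level and sums of 99.4 to 201.4 TPM.

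Promoter sequence was available for 36 of the 47 listed members, 33 of them among the 43, in RefSeq windows of GRCm38.p6 that run from 250 bases before to 50 bases after a start site. Searched on both strands were TGACGTCA (the cAMP response element), its shorter form TGACG, which every TGACGTCA contains, CACGTG (the E-box of MYC, USF and TFE factors) and the consensus inverted repeat that FXR binds, known as IR-1. The sequences below are the 250 bases before the start for the members that carry TGACGTCA, which are Slc25a25 and Slc25a36, and for Slc25a13. The GW4064 differences of all 3 depended on genotype, and each holds a motif match in a window printed here. Those of Slc25a10 and Slc25a48 also depended on genotype. The 250 bases before their starts hold no match and are not printed, and Slc25a48 has a TGACG after its start. Slc25a25 has 3 start sites in the table, and its most upstream start is shown beside its innermost, which holds the element 150 bases before the start. All the printed sequences are on the minus strand and are written 5′ to 3′ along the gene, with motif matches in capitals.
Slc25a25, upstream start, chr2:32451471-32451720: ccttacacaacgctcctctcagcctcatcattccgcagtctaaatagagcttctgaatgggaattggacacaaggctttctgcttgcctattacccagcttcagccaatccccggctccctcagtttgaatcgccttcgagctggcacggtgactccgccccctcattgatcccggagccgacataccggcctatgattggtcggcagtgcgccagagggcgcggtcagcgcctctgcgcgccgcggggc
Slc25a25, innermost start, chr2:32424067-32424316: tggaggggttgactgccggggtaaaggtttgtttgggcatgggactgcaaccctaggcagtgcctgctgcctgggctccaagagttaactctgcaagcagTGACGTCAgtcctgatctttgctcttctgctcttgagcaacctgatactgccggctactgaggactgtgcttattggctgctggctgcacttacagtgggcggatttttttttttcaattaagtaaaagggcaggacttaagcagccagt
Slc25a36, chr9:97111042-97111291: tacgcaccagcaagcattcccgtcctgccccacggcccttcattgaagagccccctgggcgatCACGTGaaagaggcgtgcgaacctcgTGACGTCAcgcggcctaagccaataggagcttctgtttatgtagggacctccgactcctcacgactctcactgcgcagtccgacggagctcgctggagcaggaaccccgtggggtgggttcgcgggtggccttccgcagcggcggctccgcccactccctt
Slc25a13, chr6:6217174-6217423: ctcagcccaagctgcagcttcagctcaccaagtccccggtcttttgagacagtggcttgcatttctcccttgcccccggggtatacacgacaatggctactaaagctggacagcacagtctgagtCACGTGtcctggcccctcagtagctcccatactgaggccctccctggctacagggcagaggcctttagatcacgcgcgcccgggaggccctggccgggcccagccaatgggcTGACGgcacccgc

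In Slc25a36 the TGACGTCA lies 161 bases before the start and a CACGTG 187 bases before it, and in Slc25a13 the CACGTG lies 125 bases before the start. TGACGTCA was in 2 of the 43 windows of the tested members (4.65%), against 1.79% of all 32851 windows in the table. TGACG was in 13 windows (30.2% against 20.8%) and CACGTG in 7 (16.3% against 7.15%), the latter in Slc25a1, Slc25a13, Slc25a14, Slc25a15, Slc25a33 and Slc25a36. The IR-1 repeat was in 0 of the 43 windows and in 3 of all windows (0.00913%). These matches describe letters in a short window, and binding of any factor was not measured.

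Summed over the listed members, the family made up 0.597% to 0.672% of all TPM per library. The wild-type GW4064 libraries were lowest, at 0.597% to 0.610%, below the wild-type vehicle libraries at 0.614% to 0.628%. In mean TPM the family summed to 6012 with GW4064 against 6200 on vehicle, and Slc25a25 alone averaged 115 against 291. Other members did not all fall, and carriers of cofactors, nucleotides and glutathione summed to 1318 against 1234 TPM. The knockout libraries held 0.628% to 0.672% on vehicle and 0.636% to 0.667% under GW4064. The ADP/ATP carrier Slc25a5, the phosphate carrier Slc25a3 and the second ADP/ATP carrier Slc25a4 together held 48.7% of the family's TPM, on average over the libraries. Mean levels were at or above 100 TPM for 15 members, between 10 and 100 TPM for 19 and between 1 and 10 TPM for 9.

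Levels were steady across libraries for most members. The ratio of the highest to the lowest library had a median of 1.43, and 7 members exceeded 2 in that ratio. Of these Slc25a2, Slc25a43 and Slc25a53 averaged under 2 TPM, and the other 4 were Slc25a25, Slc25a48, Slc25a22 and Slc25a30. Within groups the median SD of log2 values was 0.0666 to 0.0905 for the members and 0.0897 to 0.107 for all genes.

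**Figure D1:**
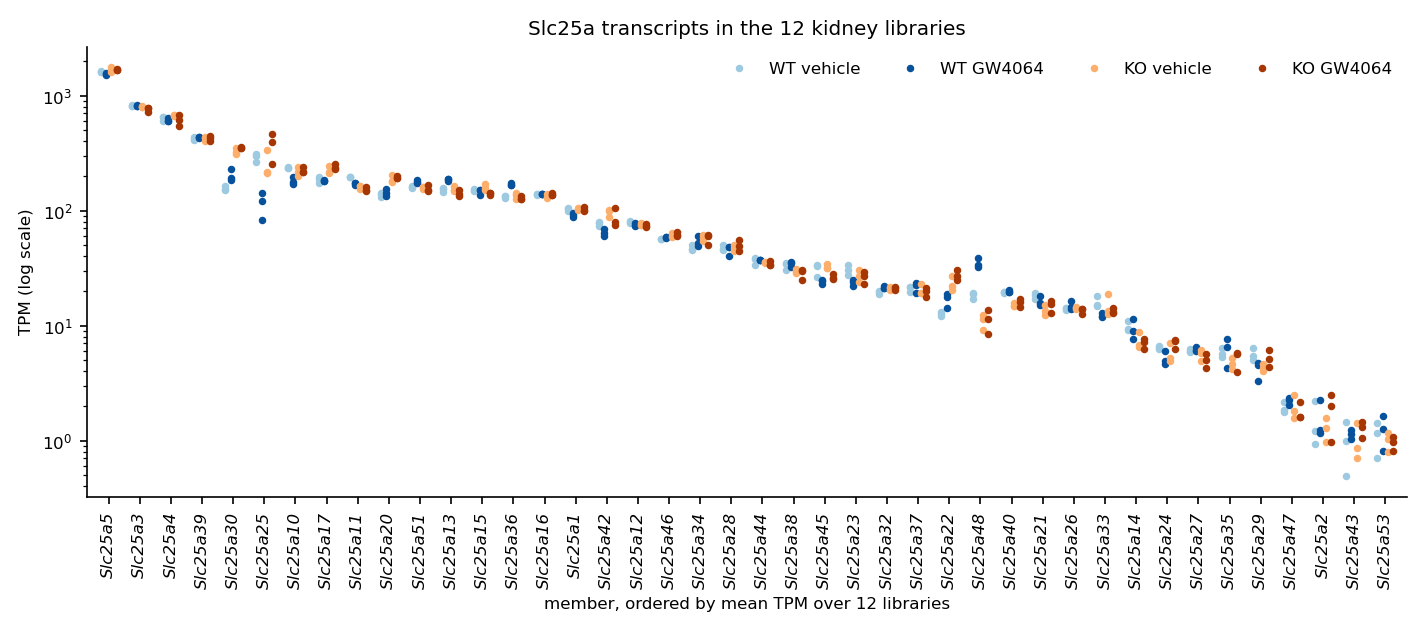
TPM of 42 members in each of the 12 libraries on a log scale, ordered by mean, with 1 point per library coloured by group. The level spans from Slc25a5 near 1634 TPM on average to members near 1 TPM. Slc25a25, Slc25a30, Slc25a48 and Slc25a22 stand out by some groups lying apart, although in each the vehicle and GW4064 libraries of the knockout overlap.

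The first question was which carriers differed after the agonist where the receptor gene was intact. A gene was called at a limma adjusted p under 0.05, with adjustment over all 14488 genes. Of the 43 members 9 were called (20.9%), against a background of 4.8% of all genes. Of these 5 rose, Slc25a36, Slc25a48, Slc25a13 and Slc25a30 among them, and 4 fell, Slc25a25, Slc25a10, Slc25a11 and Slc25a45, against backgrounds of 2.48% called higher and 2.32% called lower. The median log2 difference of the members was 0.02, beside -0.03 for all genes, and 25 members lay above 0. The 2 groups of libraries did not overlap for 20 members, beside 26.8% of all genes.

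The ATP-Mg/phosphate carriers exchange ATP-magnesium for phosphate under control of cytosolic calcium and so set the adenine nucleotide pool of the matrix. Slc25a25 (Entrez Gene 227731, chromosome 2, 32414487 to 32451470, mm10) is 1 of 3 members of this type that met the rule. It measured 262, 313 and 297 TPM in wild type on vehicle and 83.6, 142 and 120 TPM with GW4064. Every GW4064 library was thus below every vehicle library, at a fitted ratio of 0.389. The log2 difference was -1.36 ± 0.25 (SE; 95% interval -1.90 to -0.82; limma, adjusted p = 0.00831, n = 3 per group). The related Slc25a23 measured 27.7, 30.3 and 33.9 TPM on vehicle and 22.1, 24.96 and 24.1 TPM with GW4064 (-0.36 ± 0.11, adjusted p = 0.0899). Slc25a24 gave 6.64, 6.23 and 6.56 TPM against 4.91, 4.65 and 5.99 TPM (-0.30 ± 0.14, adjusted p = 0.259). Neither relative passed the test, although neither had overlapping groups. The summed level of the type was 297 to 349 TPM on vehicle and 111 to 171 TPM with GW4064. Slc25a25 shares 1014 bases with Naif1 on the opposite strand, which averaged 3.12 TPM, and whether strand was used in counting is not given in the sources used here.

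Slc25a36, a pyrimidine nucleotide carrier, gave 128, 134 and 135 TPM on vehicle against 175, 167 and 168 TPM. The groups did not overlap, and the rise was modest in size but tight, at 0.36 ± 0.05 (adjusted p = 0.00104). Among 11 tested carriers of cofactors, nucleotides and glutathione 2 rose and 0 fell, beside 2.48% and 2.32% of all genes. The most abundant of that group was Slc25a39, which imports glutathione. It measured 433, 423 and 414 TPM on vehicle and 429, 438 and 440 TPM with GW4064 and was not called in any comparison.

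Slc25a48, a carrier linked to mitochondrial choline uptake, rose. It measured 19.0, 19.3 and 17.1 TPM on vehicle and 33.9, 38.9 and 32.4 TPM with GW4064. The log2 difference was 0.91 ± 0.15, a ratio of 1.87, with no overlap between groups (adjusted p = 0.00577). Slc25a45, from the same branch of the family, went the other way. It stood at 33.6, 32.7 and 26.7 TPM on vehicle and 24.4, 24.8 and 23.0 TPM with GW4064 (-0.35 ± 0.08, adjusted p = 0.0302). That call was lost when any 1 of 5 wild-type libraries was left out (all but vehicle replicate 3, adjusted p up to 0.109) and with libraries rescaled by median-of-ratios (adjusted p = 0.059) or quantiles (adjusted p = 0.0549). It was also lost without a variance trend (adjusted p = 0.0505) and with only the compared groups in the fit (adjusted p = 0.0735). Of the 9 tested carriers of carnitine, ornithine and other amino acids, these were the 2 called (4.8% of all genes were called). The most abundant of these 9 carriers, the carnitine/acylcarnitine translocase Slc25a20, measured 131, 143 and 139 TPM on vehicle and 142, 155 and 134 TPM with GW4064. Its groups overlapped.

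Slc25a13 (citrin), the calcium-regulated aspartate/glutamate carrier of the malate-aspartate shuttle, rose. It went from 157, 154 and 146 TPM on vehicle to 188, 180 and 189 TPM (0.29 ± 0.05, adjusted p = 0.00925). Its close relative Slc25a12 (aralar) measured 79.0, 81.6 and 77.6 TPM against 73.6, 77.7 and 75.1 TPM and was not called. The glutamate carrier Slc25a22 gave 12.6, 13.1 and 12.1 TPM against 14.4, 19.0 and 17.7 TPM. Its log2 difference of 0.41 ± 0.12 missed the threshold (adjusted p = 0.0761), and it passed without wild-type GW4064 replicate 1 (adjusted p = 0.0408).

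Among the carriers of di- and tricarboxylates, Slc25a10 and Slc25a11 were called, both lower. Slc25a10, the dicarboxylate carrier that exchanges malate or succinate for phosphate, measured 241, 234 and 235 TPM on vehicle and 169, 196 and 178 TPM with GW4064 (-0.39 ± 0.07, adjusted p = 0.00721). Slc25a11, the oxoglutarate/malate carrier, had vehicle libraries within 194.5 to 195.9 TPM and GW4064 libraries at 166, 173 and 173 TPM. Its log2 difference was small at -0.19 ± 0.04 (adjusted p = 0.0134), and removal of wild-type vehicle replicate 3 or GW4064 replicate 1 ended the call (adjusted p up to 0.0697). The citrate carrier Slc25a1 measured 106, 99.4 and 103 TPM against 88.0, 96.0 and 91.3 TPM and did not pass (-0.16 ± 0.05, adjusted p = 0.0726). Of 6 tested members of this type 2 fell and 0 rose, beside 2.32% and 2.48% of all genes. Among the uncalled, Slc25a1 and Slc25a21 (-0.17 ± 0.11) lay below 0 and Slc25a34 (0.19 ± 0.09) and Slc25a35 (0.06 ± 0.19) above it.

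Slc25a30, the kidney mitochondrial carrier, is related to the uncoupling proteins. It measured 151, 154 and 163 TPM on vehicle and 191, 228 and 186 TPM with GW4064. Groups were separated, with a log2 difference of 0.37 ± 0.07 (adjusted p = 0.0121), and the adjusted p was 0.0512 once wild-type vehicle replicate 1 was left out. The other uncoupling protein-like members, Slc25a14 and Slc25a27, were not called.

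Whole groups of the family gave no call in this comparison. Among the ADP/ATP and phosphate carriers Slc25a5 measured 1597, 1636 and 1618 TPM on vehicle and 1566, 1541 and 1523 TPM with GW4064, a log2 difference of -0.07 ± 0.04. The 2 mitoferrins, which bring iron into mitochondria, ranged over all libraries from 40.6 to 55.1 TPM for Slc25a28 and from 17.7 to 23.4 TPM for Slc25a37. Neither was called here or in any other comparison. Slc25a46, an outer membrane member, stayed within 56.2 to 64.8 TPM.

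Some marker sums moved between the same groups. The 10 kidney tubule and glomerulus markers summed to 57760 to 58650 TPM on vehicle and 65970 to 71090 TPM with GW4064, with 1 called lower. Proximal tubule markers (10 of 10 detected) summed to 8643 to 8926 TPM on vehicle and 9141 to 9164 TPM with GW4064, with 1 called higher. Collecting duct markers (8 of 8) summed to 549.9 to 623.1 TPM against 465.7 to 520.2 TPM, with 1 called lower. Of all genes 2.48% were called higher and 2.32% lower. Thick limb and distal tubule sums overlapped, at 6189 to 6310 TPM against 6137 to 6295 TPM, with 0 called. Fat markers summed to 228.2 to 235.3 TPM against 187.2 to 265.3 TPM, with the fat hormone gene Adipoq at 0.133, 4.47 and 0.528 TPM in the GW4064 libraries. The median log2 difference was -1.03 over 7 tested fat markers and -0.64 over 5 tested red blood cell markers, with none called. Their part in the carrier differences was not tested. In whole kidney, fewer cells of a type and less RNA per cell cannot be told apart.

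The same agonist was then compared with vehicle where the receptor gene was disrupted. Here 0 of 43 members were called, beside 2 of 14488 genes (0.0138%), and 4 members had an unadjusted p under 0.05, beside 10.8% of all genes. Slc25a25 measured 212, 338 and 217 TPM on vehicle and 254, 466 and 398 TPM with GW4064. The groups overlapped, and the log2 difference of 0.53 ± 0.25 had an interval of -0.01 to 1.07 (adjusted p = 0.467). The lowest p belonged to Slc25a15, the ornithine carrier of the urea cycle. It gave 158, 152 and 170 TPM on vehicle and 142, 142 and 136 TPM with GW4064 (-0.19 ± 0.05, adjusted p = 0.229).

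Slc25a45 was next, at 34.2, 31.4 and 31.8 TPM on vehicle and 25.5, 27.8 and 25.9 TPM with GW4064. Its log2 difference of -0.29 ± 0.08 (adjusted p = 0.246) stands beside -0.35 ± 0.08 in wild type. These groups did not overlap, as for 4 members in all and for 13.9% of all genes. The member median was -0.01, beside 0.02 for all genes.

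The difference between the GW4064 effects in the 2 genotypes (wild type minus knockout) was tested directly. Of 43 members 6 were called (14%), against 3.19% of all genes. In 4, among them Slc25a36, Slc25a13 and Slc25a48, the wild-type effect was the more positive (background 1.72%) and in 2, Slc25a25 and Slc25a10, the more negative (background 1.47%). All 6 were among the 9 called in wild type, which shares the wild-type libraries with this comparison.

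Slc25a25 had the largest difference of effects, -1.89 ± 0.35 on the log2 scale (95% interval -2.66 to -1.13, adjusted p = 0.0154). The wild-type GW4064 libraries were the lowest 3 of the 12, and the knockout GW4064 libraries held the highest 2. The call held when each library in turn was left out (adjusted p up to 0.0472). The innermost promoter window of Slc25a25, printed above, carries TGACGTCA. So does the window of Slc25a36, whose difference of effects had the opposite sign, and a part of the element in either was not tested.

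Slc25a36 gave 143, 127 and 137 TPM in the knockout on vehicle and 126, 126 and 133 TPM with GW4064. Those values lay close to the wild-type vehicle range, and wild type with GW4064 stood apart from the other 3 groups. The difference of effects was 0.44 ± 0.07 (adjusted p = 0.00563).

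Slc25a13 in the knockout was at 152, 148 and 163 TPM on vehicle and 139, 150 and 134 TPM with GW4064, a difference of effects of 0.42 ± 0.07 (adjusted p = 0.0130). Calls for Slc25a36 and Slc25a13 held in each removal of a library. Slc25a10 in the knockout was at 201, 240 and 216 TPM on vehicle and 215, 239 and 219 TPM with GW4064, close to each other and above the wild-type GW4064 libraries. Its difference of effects was -0.43 ± 0.10 (adjusted p = 0.0395), and the call was lost under median-of-ratios scaling (adjusted p = 0.0884) and in 9 of 12 removals (adjusted p up to 0.104), the exceptions being knockout GW4064 replicate 1 and replicate 2 of the wild-type GW4064 and knockout vehicle groups. It was also lost with no filter on low values (adjusted p = 0.0586) and no variance trend (adjusted p = 0.0794). Slc25a48 was at 9.22, 11.3 and 12.5 TPM on vehicle and 8.37, 13.6 and 11.4 TPM with GW4064 in the knockout. Its difference of effects of 0.91 ± 0.22 (adjusted p = 0.0473) was lost in 10 of 12 removals (adjusted p up to 0.115), kept only without knockout vehicle replicate 1 or knockout GW4064 replicate 2. It was also lost in 4 of 14 processing alternatives, namely a pseudocount of 0.1 (adjusted p = 0.0514), no filter on low values (adjusted p = 0.0743), no variance trend (adjusted p = 0.0777) and coverage in place of TPM (adjusted p = 0.0507).

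**Figure D2:**
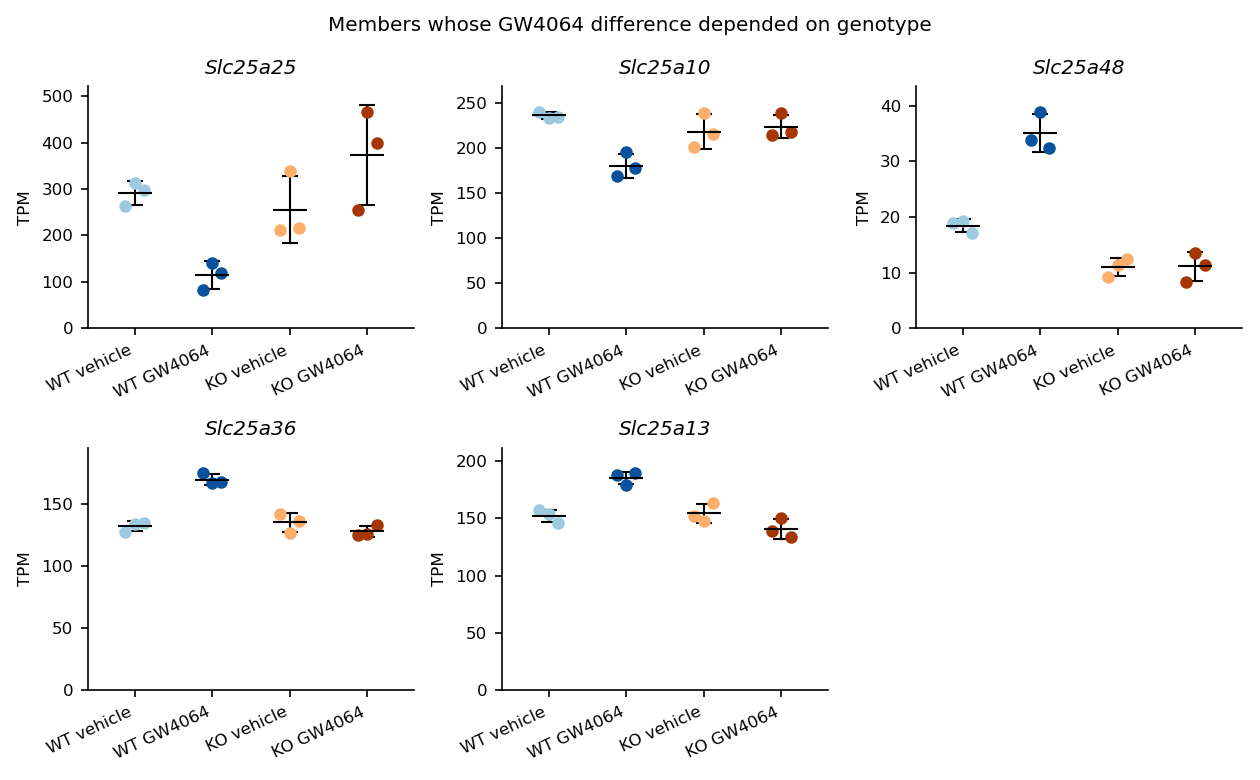
TPM in each library (points) with group mean and SD (bars) for 5 members whose GW4064 effect differed between genotypes, n = 3 per group, with axes starting at 0. In Slc25a25 and Slc25a10 the wild-type GW4064 libraries are the lowest of the 12, and in Slc25a48, Slc25a36 and Slc25a13 they are the highest.

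For the other 3 members called in wild type the difference of effects did not pass. It was 0.27 ± 0.10 for Slc25a30 (adjusted p = 0.182), -0.12 ± 0.05 for Slc25a11 (adjusted p = 0.251) and -0.06 for Slc25a45 (adjusted p = 0.83). The ATP-Mg/phosphate carrier Slc25a24 and the NAD carrier Slc25a51 had the lowest p among the other members (-0.58 ± 0.20 and 0.20 ± 0.07, adjusted p = 0.137 and 0.140).

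**Figure D3:**
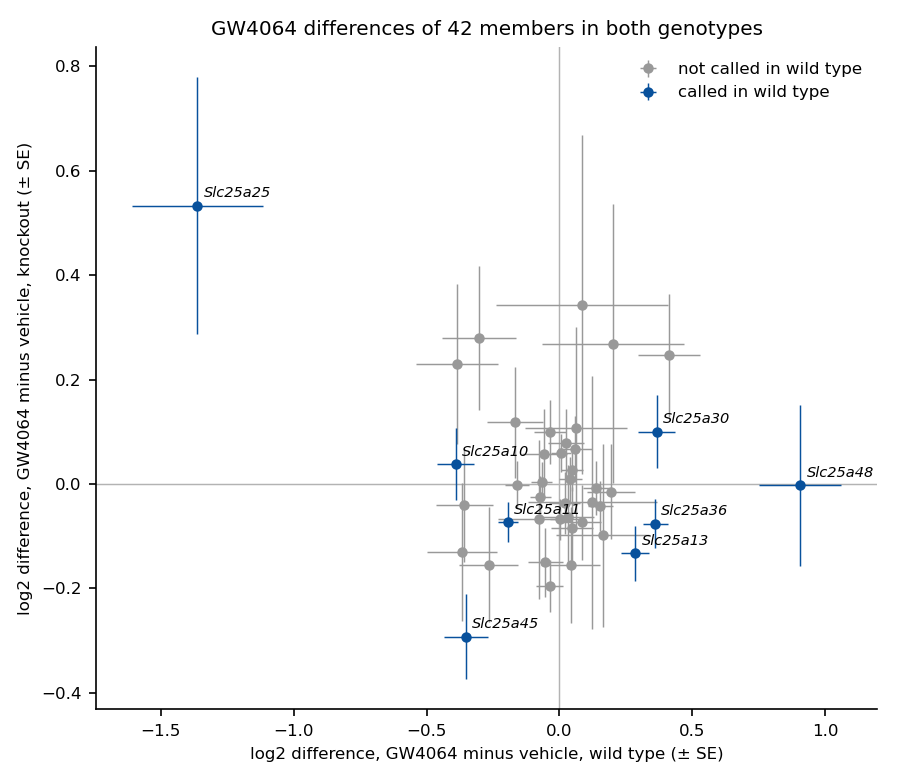
Log2 difference of 42 members after GW4064 in wild type (horizontal) and in the knockout (vertical), with standard errors and members called in wild type in blue. Slc25a25 lies far left and above 0, Slc25a45 lies below 0 on both axes, and Slc25a48 lies far right near 0 on the vertical axis.

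Next came the carriers that differed between genotypes without the agonist. On vehicle 8 of 43 members were called (18.6%), against 12.9% of all genes. Slc25a30, Slc25a22, Slc25a20 and Slc25a17 were higher in the knockout (background 3.19% called higher) and Slc25a11, Slc25a40, Slc25a48 and Slc25a21 lower (background 9.73% called lower). Rescaling by median-of-ratios turned this split of 4 and 4 into 9 higher and 3 lower, and quantile normalization into 7 and 3. The member median, -0.01 beside -0.09 for all genes, became 0.07 and 0.04 under those scalings. Groups did not overlap for 17 members, beside 34.7% of all genes.

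The largest difference was in Slc25a30 (Entrez Gene 67554, chromosome 14, 75761999 to 75787037). The knockout measured 312, 352 and 324 TPM on vehicle, against 151, 154 and 163 TPM in wild type. The groups were far apart, at a fitted ratio of 2.10. The log2 difference was 1.07 ± 0.07 (adjusted p = 1.21e-05), the lowest p of the family. Slc25a22, which takes glutamate into the matrix, measured 22.2, 27.0 and 20.4 TPM in the knockout against 12.6, 13.1 and 12.1 TPM in wild type (0.85 ± 0.12, adjusted p = 0.00126).

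Slc25a20 (Entrez Gene 57279, chromosome 9, 108662098 to 108684641) carries acylcarnitines into the matrix for beta-oxidation in exchange for carnitine. It measured 179, 203 and 177 TPM in the knockout on vehicle against 131, 143 and 139 TPM in wild type. Groups were clearly apart, with a log2 difference of 0.43 ± 0.06 (adjusted p = 0.0017). Slc25a17, a carrier of coenzyme A, FAD and NAD in the peroxisomal membrane, was at 213, 244 and 215 TPM against 173, 189 and 197 TPM. Its log2 difference was 0.26 ± 0.06 (adjusted p = 0.0176), and removal of wild-type vehicle replicate 1 or knockout vehicle replicate 2 ended the call (adjusted p = 0.0677 and 0.0534), as did a fit of the 2 compared groups alone (adjusted p = 0.0556).

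Among members lower in the knockout, Slc25a11 measured 155, 163 and 163 TPM beside 194.5 to 195.9 TPM in wild type (-0.28 ± 0.04, adjusted p = 0.00104). Slc25a40, the lower-expressed glutathione carrier, stood at 14.7, 14.8 and 15.7 TPM against 19.2, 19.6 and 19.4 TPM (-0.36 ± 0.07, adjusted p = 0.0067). For both genes the SD of the wild-type vehicle libraries was small, at 0.716 and 0.216 TPM. Slc25a48 was at 9.22, 11.3 and 12.5 TPM against 19.0, 19.3 and 17.1 TPM (-0.73 ± 0.15, adjusted p = 0.0126). Slc25a21, the oxoadipate carrier of lysine and tryptophan breakdown, gave 15.2, 12.5 and 13.3 TPM against 17.0, 19.2 and 18.6 TPM. Its log2 difference of -0.40 ± 0.11 (adjusted p = 0.0304) was lost without wild-type vehicle replicates 2 or 3 or knockout vehicle replicates 2 or 3 (adjusted p up to 0.0987), and under median-of-ratios scaling (adjusted p = 0.0862), quantile normalization (adjusted p = 0.104) and a replicate block (adjusted p = 0.0523). The 2 uncalled members of lowest p were Slc25a34 (0.29 ± 0.09, adjusted p = 0.0619) and the coenzyme A carrier Slc25a42 (0.31 ± 0.11, adjusted p = 0.0839). The latter passed with median-of-ratios scaling (adjusted p = 0.0456) and with only the compared groups in the fit (adjusted p = 0.0282).

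**Figure D4:**
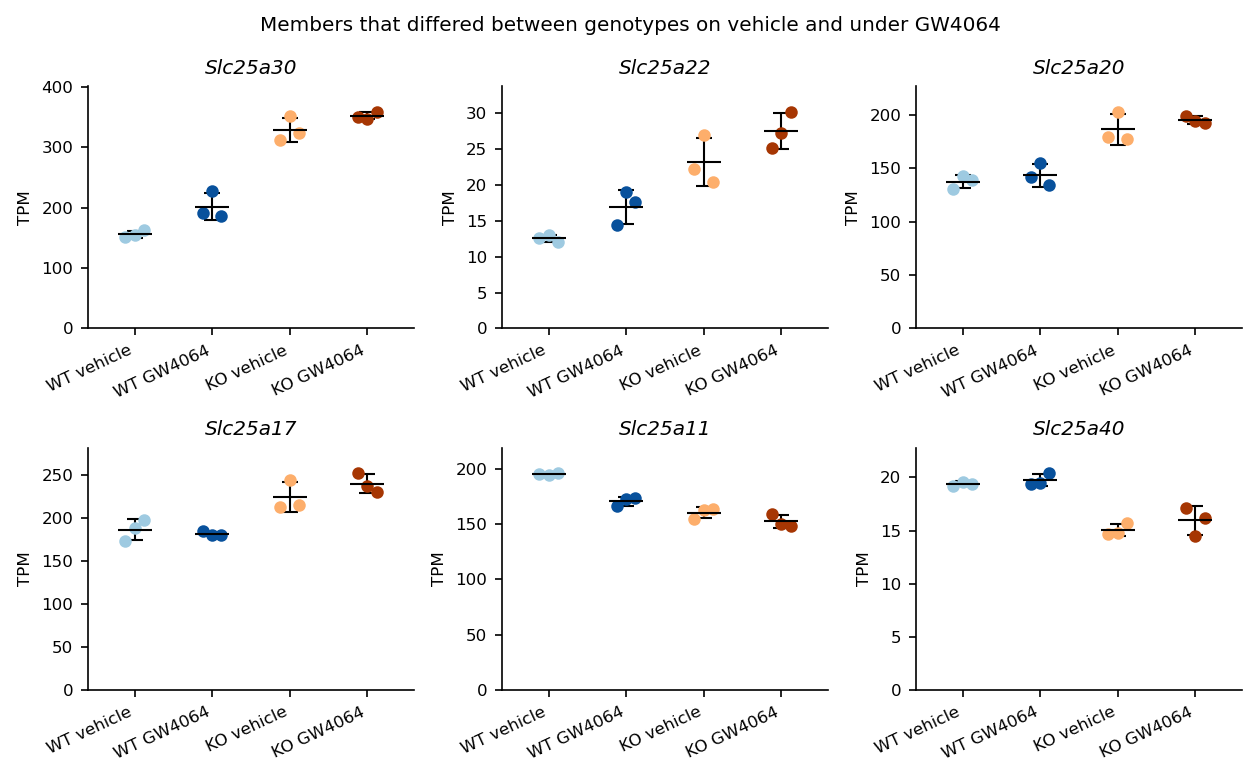
TPM in each library (points) with group mean and SD (bars) for 6 members called in the same direction in both genotype comparisons, n = 3 per group, with axes starting at 0. Knockout libraries of both treatments lie above all wild-type libraries in Slc25a30, Slc25a22, Slc25a20 and Slc25a17, and below all of them in Slc25a11 and Slc25a40.

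Under GW4064 17 of 43 members differed between genotypes (39.5%), against 18.5% of all genes, 9 higher and 8 lower in the knockout (backgrounds 7.08% and 11.4%). This comparison shares no library with the vehicle comparison. Of the 8 members called on vehicle 7 were called in the same direction under GW4064 (87.5% of 8 and 41.2% of 17), namely Slc25a30, Slc25a22, Slc25a20, Slc25a17, Slc25a11, Slc25a40 and Slc25a48. The same share over all genes is not given here, so this overlap is not read as particular to the carriers. Groups did not overlap for 25 members, beside 36.7% of all genes.

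The genotype difference under GW4064 was 0.81 ± 0.07 for Slc25a30, with knockout libraries at 351, 348 and 359 TPM and wild-type libraries at 191, 228 and 186 TPM (adjusted p = 1.6e-05). Slc25a20 stood at 199, 194 and 192 TPM against 142, 155 and 134 TPM. Its log2 difference of 0.44 ± 0.06 (adjusted p = 0.000514) lay beside 0.43 ± 0.06 on vehicle, and the difference of GW4064 effects was -0.01 (adjusted p = 0.97). Slc25a22 measured 25.2, 27.2 and 30.2 TPM against 14.4, 19.0 and 17.7 TPM (0.69 ± 0.12, adjusted p = 0.00193). Slc25a17 measured 252, 237 and 231 TPM against 185, 180 and 180 TPM (0.40 ± 0.06, adjusted p = 0.000879). The separation of these 4 carriers was thus present with and without the agonist.

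The members whose GW4064 effect depended on genotype made up much of the rest. Slc25a25, which was not called on vehicle (-0.22 on the log2 scale, limma adjusted p = 0.588), was higher in the knockout by 1.68 ± 0.25, a ratio of 3.20 (adjusted p = 0.000648), and Slc25a10 by 0.31 ± 0.07 (adjusted p = 0.0092). Slc25a48 was lower by -1.64 ± 0.15, a ratio of 0.322 (adjusted p = 2.79e-05). Slc25a36 differed by -0.40 ± 0.05 (adjusted p = 0.000131) and Slc25a13 by -0.40 ± 0.05 (adjusted p = 0.000319). In these 5 the wild-type GW4064 libraries lay at 1 end of the 12.

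The remaining calls were smaller. Slc25a11 (-0.16 ± 0.04) and Slc25a40 (-0.30 ± 0.07) were again lower in the knockout (adjusted p = 0.0125 and 0.00815), and quantile normalization ended the call of Slc25a11 (adjusted p = 0.0756). Slc25a51, the NAD carrier, measured 151, 166 and 147 TPM in the knockout against 186, 177 and 173 TPM (-0.21 ± 0.05, adjusted p = 0.0103). Slc25a42 measured 75.5, 106 and 79.9 TPM against 59.9, 69.2 and 63.9 TPM (0.42 ± 0.11, adjusted p = 0.0199), a call lost without wild-type GW4064 replicates 1 or 3 (adjusted p up to 0.0806).

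The glycine carrier Slc25a38, which serves heme synthesis, was at 24.8, 29.6 and 30.3 TPM against 35.3, 32.6 and 35.5 TPM (-0.29 ± 0.08, adjusted p = 0.0277). Slc25a1 was at 107, 98.9 and 102 TPM against 88.0, 96.0 and 91.3 TPM (0.16 ± 0.05, adjusted p = 0.0278). Slc25a5 was at 1702, 1677 and 1687 TPM against 1566, 1541 and 1523 TPM (0.13 ± 0.04, adjusted p = 0.0354), the only call among the ADP/ATP and phosphate carriers in any comparison. All 3 calls lay near the threshold. Over the removals of 1 library the log2 differences stayed within -0.34 to -0.20 for Slc25a38, 0.13 to 0.19 for Slc25a1 and 0.12 to 0.14 for Slc25a5. The call of Slc25a38 was lost without wild-type GW4064 replicates 1 or 3 or knockout GW4064 replicate 1 (adjusted p up to 0.0909) and under median-of-ratios and quantile scaling (adjusted p = 0.0555 and 0.0521), and that of Slc25a1 without replicates 1 or 3 of either GW4064 group (adjusted p up to 0.114). That of Slc25a5 was lost without any 1 of 8 libraries, all but the knockout vehicle libraries and wild-type vehicle replicate 1 (adjusted p up to 0.108), and quantile normalization brought its log2 difference down to 0.07 (adjusted p = 0.263). With only the 2 compared groups in the fit these 3 calls and that of Slc25a42 were also lost (adjusted p = 0.0640 to 0.0739), and without a variance trend so were those of Slc25a1 (adjusted p = 0.0560) and Slc25a5 (adjusted p = 0.0636), the latter also without a filter on low values (adjusted p = 0.0771). The uncalled members of lowest p were Slc25a24 (0.41 ± 0.14, adjusted p = 0.0620) and Slc25a3 (-0.10 ± 0.04, adjusted p = 0.0896), the carrier closest to Nr1h4.

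**Figure D5:**
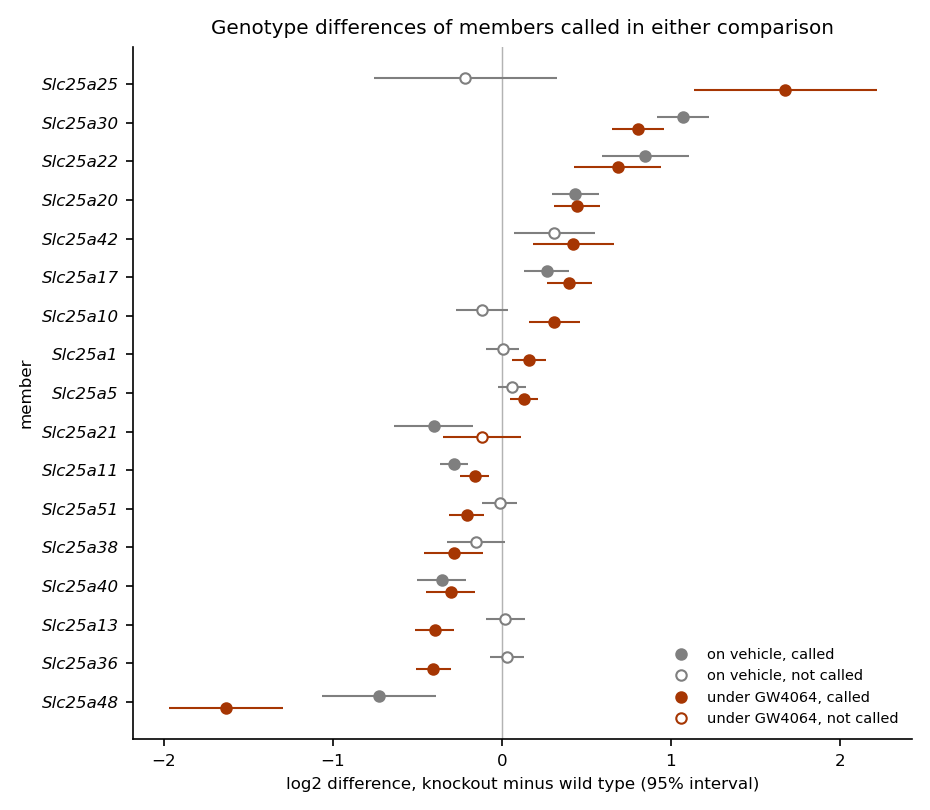
Log2 difference, knockout minus wild type, with 95% intervals for 17 members called on vehicle (grey) or under GW4064 (red). Filled points were called and open points were not. Slc25a30, Slc25a22, Slc25a20 and Slc25a17 lie right of 0 and Slc25a11, Slc25a40 and Slc25a48 left of 0 in both, while Slc25a25, Slc25a36 and Slc25a13 leave 0 only under GW4064.

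Proximal tubule marker sums were 8338 to 8933 TPM in the knockout on vehicle and 7659 to 8463 TPM under GW4064, the latter below all wild-type GW4064 libraries (9141 to 9164 TPM). Of the 10 markers 1 was called lower in the knockout on vehicle and 5 under GW4064, beside 9.73% and 11.4% of all genes. Of the 10 kidney tubule and glomerulus markers 3 were called lower on vehicle and 4 under GW4064, with 0 higher. Their sums in the knockout were 62260 to 74050 TPM on vehicle and 63030 to 68870 TPM under GW4064. Thick limb and distal tubule sums (8 of 8 detected) were 5981 to 6013 TPM in the knockout on vehicle against 6189 to 6310 TPM in wild type, and 5537 to 6024 TPM against 6137 to 6295 TPM under GW4064. Both pairs of groups were apart, with 0 of the 8 genes called. Collecting duct sums were 505.9 to 529.2 TPM in the knockout on vehicle against 549.9 to 623.1 TPM, with 3 of 8 genes called lower and 1 higher (9.73% and 3.19% of all genes). Under GW4064 they overlapped, at 425.6 to 484.7 TPM against 465.7 to 520.2 TPM, with 1 called lower. Red blood cell marker sums (5 of 6 at 1 TPM or more in at least 3 libraries) ranged from 758.6 to 2840 TPM, with overlap between all groups. Their median log2 difference, knockout minus wild type, was -0.28 on vehicle and 1.53 under GW4064, with none called. Fat marker sums in the knockout were 237.1 to 259.4 TPM on vehicle and 231.7 to 345.3 TPM under GW4064. Their median log2 difference was -0.74 on vehicle and 0.61 under GW4064, with 1 of 7 called higher under GW4064 (7.08% of all genes). For the difference of GW4064 effects the medians were -1.98 (red blood cell) and -1.50 (fat), with none called. The part of these in the genotype differences of the carriers was not tested. Over all comparisons 19 of the 43 members were called at least once and 24 never, the latter with log2 differences between -0.62 and 0.41.

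Genes that work with the carriers were examined by pathway. In the carnitine system (8 tested) none of the genes was called for GW4064 in the knockout, and 1 fell with GW4064 in wild type, the carnitine synthesis enzyme Bbox1 (-0.62 ± 0.16, adjusted p = 0.0473; 2.32% of all genes fell). Between genotypes on vehicle 3 were higher in the knockout and 0 lower, against 3.19% and 9.73% of all genes. Cpt2, which releases acyl groups from the carnitine that Slc25a20 brings in, measured 233, 255 and 248 TPM against 177, 179 and 191 TPM (0.43 ± 0.05, adjusted p = 0.000517). The other 2 were Cpt1a, which loads acyl groups on carnitine (0.21 ± 0.06), and the acetyltransferase Crat (0.31 ± 0.06). Under GW4064 4 were higher (Cpt1a, Cpt2, Crat and the peroxisomal Crot) and 1 lower, the carnitine importer Slc22a5 (-0.17 ± 0.04), against 7.08% and 11.4% of all genes. Cpt2 then differed by 0.57 ± 0.05 and Crot by 0.55 ± 0.09.

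Of 13 genes of the carrier import route 1 rose with GW4064 in wild type (2.48% of all genes rose). This was Timm9, a chaperone that escorts carriers across the intermembrane space. It measured 65.9, 66.0 and 62.5 TPM on vehicle and 80.8, 75.3 and 77.3 TPM with GW4064 (0.26 ± 0.04, adjusted p = 0.00533). Timm9 was also the only gene of these lists with a called difference of effects between genotypes (0.33 ± 0.06, adjusted p = 0.0166). In the knockout on vehicle 2 were lower, the TIM22 subunit Agk (-0.29 ± 0.09) and the outer membrane pore Tomm40 (-0.24 ± 0.07), and 0 were higher. Under GW4064 3 were lower, Timm8a1, Timm9 and Agk, and 0 higher. With 9.73% of all genes called lower on vehicle and 11.4% under GW4064, counts this small out of 13 are not read as a result about the import route.

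Among regulators of mitochondrial genes (8 tested), Ppara, the fatty acid receptor that drives oxidation genes, fell with GW4064 in wild type (2.32% of all genes fell). It went from 107, 118 and 113 TPM to 82.7, 85.0 and 83.9 TPM (-0.42 ± 0.08, adjusted p = 0.0104). In the knockout on vehicle Ppargc1a (-0.20 ± 0.05), Esrra (-0.20 ± 0.06) and Nrf1 (-0.21 ± 0.06) were lower and 0 were higher, against 9.73% and 3.19% of all genes. Under GW4064 Ppargc1a (-0.31 ± 0.05) and Esrra (-0.37 ± 0.06) were lower and Ppara (0.32 ± 0.08) and Ppargc1b (0.53 ± 0.16) higher, against 11.4% and 7.08% of all genes.

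Of 4 tested relatives named outside the family Ucp2 was higher (0.97 ± 0.22, adjusted p = 0.0113) and Mtch2 lower (-0.14 ± 0.04) in the knockout under GW4064, where 7.08% of all genes were called higher and 11.4% lower, and none was called elsewhere. Of 11 other inner membrane carriers and channels Sfxn3 was higher and Mpc2, Sfxn2 and Sfxn5 lower in that comparison, and none was called elsewhere. Of 6 tested malate-aspartate enzymes 1 was lower in the knockout on vehicle. Under GW4064 1 was lower and 1 higher, the latter Got2 (0.13 ± 0.04). Of 3 outer membrane channels Vdac2 was lower in the knockout on vehicle (-0.13 ± 0.04). Of all genes 9.73% were called lower on vehicle, and 7.08% were called higher and 11.4% lower under GW4064. Counts this small are not read as a result about these lists.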

How the data were processed

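Kidney total RNA was sequenced in 12 libraries, 3 in each of 4 groups, with a stranded total RNA kit, per the labels. The authors deposited 1 gene table per library with TPM, FPKM and coverage, and HISAT2, StringTie and Cufflinks with mm10 are named, per the submitters' processing notes. Versions, roles, annotation and any use of strand are not stated there. TPM was the value analysed. Deposited FPKM was an alternative scale and, with the deposited coverage signal, gave the depth of 2.86 to 4.27 mapped gigabases per library. No read counts were used, so count tests were not applied, and single genes have no counting interval.

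Symbols for 24462 of 24532 Entrez identifiers and promoter windows were taken from RefSeq (GRCm38.p6). Genes that reached 1 TPM in at least 3 libraries were fitted as log2(TPM + 0.5) with limma 3.58.1 in R 4.3.3, with 4 group means over 12 libraries, a variance trend and two-sided tests. Fold ratios are on that scale, which understates changes of low genes. Benjamini-Hochberg adjustment ran over 14488 genes within each of 5 comparisons. The fit was tested on simulated data for GW4064 in wild type, with 200 of 14488 genes changed. Recovery was 57.3% at a log2 change of 0.5, 84.5% at 1 and 97% at 2, and 4.75% of calls were false. Errors beside log2 values are SE. Members and gene lists were chosen with earlier results of these data known. One family member and one gene of a pathway list are counted in the fit but not reported here. All other members called in any comparison are described, with the most abundant members of role groups and the 2 uncalled members of lowest p in each comparison. Python 3.11.15, pandas 2.3.3 and matplotlib 3.10.9 served for tables and plots. Alternatives changed the pseudocount, filter, unit, scaling, variance model, weights, libraries in the fit, block and gene set, and left out each library in turn. The use of coverage in place of TPM was chosen after seeing the data.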

Additional observations from a re-analysis of the deposited data

Results flagged for a closer look

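For several carriers the GW4064 effect differed between wild type and knockout by a direct test (limma interaction, wild-type effect minus knockout effect on the log2 scale). The difference was 0.44 for Slc25a36 (adjusted p = 0.00563) and 0.42 for Slc25a13 (adjusted p = 0.0130). For Slc25a25 it was -1.89 (adjusted p = 0.0154), from -1.36 in wild type and 0.53 in the knockout. It was -0.43 for Slc25a10 (adjusted p = 0.0395) and 0.91 for Slc25a48 (adjusted p = 0.0473), and these were the 2 whose call did not hold in most removals of a library.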

How the results depend on the processing

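No count of called members changed by more than 1.5 times in any alternative, and no called member changed sign. With 1 library left out, counts ranged from 7 to 11 for GW4064 in wild type (9 with all libraries), stayed at 0 for GW4064 in the knockout, and ranged from 6 to 9 for the genotype comparison on vehicle (8), 13 to 18 under GW4064 (17) and 4 to 6 for the interaction (6). The lowest interaction count of 4 came without any 1 of the wild-type vehicle libraries, wild-type GW4064 replicates 1 or 3 or knockout GW4064 replicate 3, and lost Slc25a10 and Slc25a48 each time. Both were also lost without knockout vehicle replicate 3, where another member was called and the count was 5. Over the other alternatives, 15 for each comparison and 14 for the interaction, counts were 8 to 11, 0, 7 to 12, 13 to 17 and 4 to 6. A fit with replicate number as a block gave 9, 0, 7, 17 and 6. Over all tested genes the numbers gave no sign of pairing. Deviations of same-numbered libraries correlated at -0.0748 to 0.0606 over 12 pairs, and in 4 of the 12 the same-numbered library gave the highest correlation. Such correlations do not speak for single genes. Slc25a25 was lowest in replicate 1 and highest in replicate 2 in each of the 4 groups, and its calls held in the block fit. Identifiers with several entries were fewest in replicate 2 of every group (113 to 120, against 126 to 142 in the other libraries). On vehicle, median-of-ratios scaling gave 12 called members with 1379 genes called in all (9.52%), and quantile normalization gave 10 with 8.73%. Under these scalings the interaction split of 4 higher and 2 lower became 4 and 1, and 4 and 2. Depth limits the lowest members, since those near 1 TPM had mean coverage down to 0.644 reads per base. With 3 libraries per group, changes of 0.5 on the log2 scale were often missed in simulated data over all genes, 200 of them changed. The members varied less than all genes in median SD, so that recovery does not describe them. An uncalled carrier was still not shown to be unchanged, and the intervals differed in width. For GW4064 in wild type the 95% interval was -0.08 to 0.09 for Slc25a3 and -0.62 to 0.80 for Slc25a2.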
